A study of Lithobates pipiens with 72 samples.

Results

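Surfactant protein D-like and the other lectins of northern leopard frog tadpoles (Lithobates pipiens, also called Rana pipiens) were followed through 4 acute exposures to munitions compounds. The members were the transcripts whose best-matching protein name contains "pulmonary surfactant", "lectin" (but not "selectin"), "intelectin", "galectin", "ficolin" or "mannose-binding". These were 45 of the 19128 transcripts in the count tables. The name rule also caught 2 plectins, which are cytoskeletal linkers, and aquaporin 2 through the words "collecting duct"; these 3 are not lectins, which left 42 lectins, surfactant proteins and lectin-associated proteases. They comprised 9 C-type lectins, 9 galectins, 5 siglecs, 4 surfactant-associated proteins, 4 collectins, 4 other lectins, 3 proteases of the lectin pathway, 2 ficolins, 1 intelectin and 1 lectin of the endoplasmic reticulum. The names are matches to proteins of other species, mostly Xenopus, and the transcripts have not been shown here to be the one-to-one counterparts of those genes.

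Hatchlings aged 7 to 10 d when exposure began were kept for 96 h in beakers, and RNA was taken from whole bodies, with 5 tadpoles per beaker behind each library and 4 beakers (libraries A to D) per group. TNT (trinitrotoluene, a nitroaromatic explosive, coated onto the flask from acetone that was evaporated before water was added) was given at 1.5 mg/L, 2.3 mg/L and 3.4 mg/L (all concentrations are nominal). NQ (nitroguanidine) was given at 30, 150, 750 and 3750 mg/L, and its methylated analogue MeNQ (methylnitroguanidine) at 34, 170, 851 and 4225 mg/L, both series matching 0.3, 1.4, 7.2 and 36 mmol/L. IMX-101, an insensitive munitions mixture that contains NQ and the acid NTO and whose solutions were brought to neutral pH with NaOH, was given at 10, 20 and 40 mg/L. Each exposure had its own control in dechlorinated tap water, giving 18 groups and 72 libraries. The animals were hatched from commercially supplied eggs and carried no genetic change, and individuals with poor RNA were left out of a beaker's pool.

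Lectins are proteins that bind sugars. The collectins, among them surfactant proteins A and D and mannose-binding lectin, join a collagen-like stem to a calcium-dependent sugar-binding head and coat microbes. Surfactant proteins A and D do so in fluids that line the lung and, for surfactant protein D in mammals, other mucosal surfaces. Ficolins also coat microbes, with a fibrinogen-like head. Ficolins and mannose-binding lectin switch on complement through the proteases called MASPs. Surfactant protein C is no lectin but a small lipid-embedded peptide that lowers surface tension in mammalian alveoli. Galectins bind galactosides inside and outside cells, and several are abundant in gut epithelium.

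The libraries held 1.675 M to 21.66 M counts (M, 1e6), with a median of 10.785 M. Levels are given as counts per 1e6 library counts (CPM) scaled within an exposure, so they are not set against each other between exposures or, because transcript lengths are not given, between genes. Summed levels of the marker lists, and shares of those sums, are shares of counts only, without correction for transcript length. A transcript was called where edgeR's quasi-likelihood F test against the control of the same exposure gave a Benjamini-Hochberg adjusted p under 0.05 over all transcripts tested. The shallowest library was TNT control A, with 1.675 M counts from 1 sequencing run. The IMX-101 20 and 40 mg/L libraries came from a run set other than that of the IMX-101 control and 10 mg/L libraries, so run set and dose cannot be told apart in their comparisons with the control. Within 1 run set, 10 mg/L can be read against the control, and 40 mg/L against 20 mg/L.

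Of the 45 members, 33 were abundant enough to be tested in at least 1 exposure and 28 in all 4. Of the 12 that were tested within no exposure, 6 had no count in any library: collectin-10, CLEC11A-like, CLEC10A-like, CLEC4E-like, galectin-12-like and aquaporin 2. The other 6 reached at most 2.63 CPM in any library and included collectin-11, intelectin 1 and galectin-8. A partial MASP transcript among these 6 was tested only in the joint fit of NQ and MeNQ, where it was not called. No transcript named mannose-binding lectin itself was among the 45.

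SP-D-like fell under TNT at every dose, under NQ at the highest dose and under IMX-101 at 20 and 40 mg/L. In the TNT controls it stood at 742, 1195, 942 and 760 CPM in libraries A to D. At 1.5 mg/L it stood at 158.0, 211, 189 and 269 CPM, at 2.3 mg/L at 60.2, 216, 110 and 237 CPM, and at 3.4 mg/L at 103, 33.5, 86.5 and 59.2 CPM. Every exposed TNT library lay below every control, while neighbouring doses overlapped. The log2 fold changes were -2.13 ± 0.41 (SE; adjusted p = 0.00952), -2.55 ± 0.42 (adjusted p = 0.0016) and -3.69 ± 0.44 (adjusted p = 6.28e-05), the last a 12.9-fold lower level, and the slope over the dose steps was -1.17 ± 0.14 log2 units per step (adjusted p = 3.64e-05). These calls held with each of the 8 control and exposed libraries left out in turn. The RNA came from whole bodies, so fewer cells that make a transcript and less of it per cell cannot be told apart, here or in any result that follows.

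Under NQ the SP-D-like level stood at 1636, 3618, 1735 and 2797 CPM in the controls and at 841, 679, 400.3 and 1450 CPM at 3750 mg/L. The 4 exposed libraries lay below all controls, and the fold change was -1.54 ± 0.32 (adjusted p = 0.0111). At 30, 150 and 750 mg/L the values were -0.44 ± 0.31, -0.78 ± 0.31 and -0.95 ± 0.31, none of which passed the test (adjusted p 0.807, 0.57 and 0.725), although at 750 mg/L too the libraries lay below all controls. The slope of -0.36 ± 0.07 log2 units per dose step passed (adjusted p = 0.013). The NQ controls spread from 1636 to 3618 CPM, and those of 750 mg/L from 885 to 1435 CPM.

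**Figure D1:**
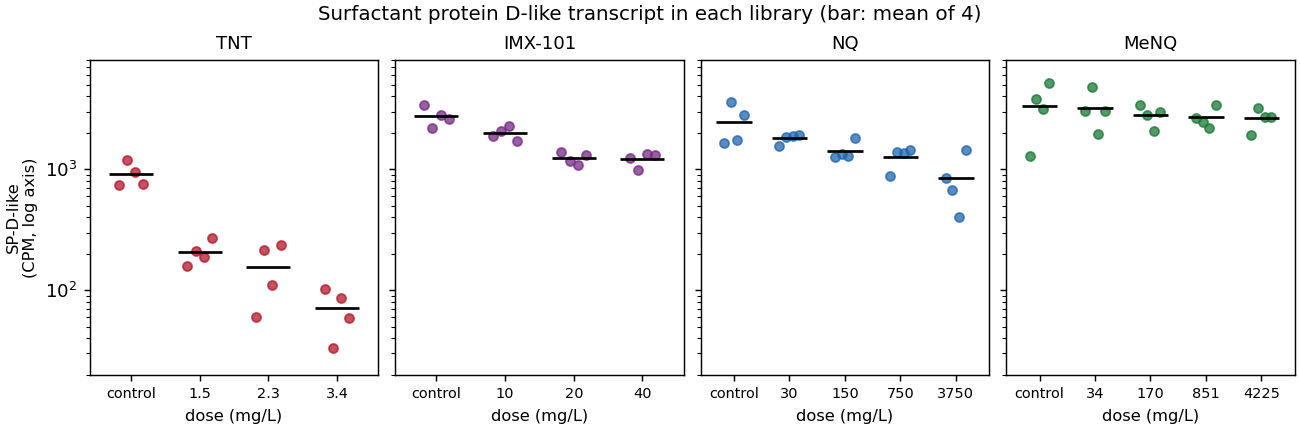
SP-D-like level in CPM (log axis) in each library, by exposure and dose in mg/L; points are libraries and bars are means of 4. TNT libraries fell from a control mean of 909 CPM to 70.6 CPM at 3.4 mg/L, while MeNQ means stayed between 2631 and 3349 CPM with wide overlap.

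In the IMX-101 controls SP-D-like stood at 3410, 2188, 2786 and 2626 CPM. It stood at 1385, 1167, 1075 and 1310 CPM at 20 mg/L and at 1233, 983, 1347 and 1301 CPM at 40 mg/L. All 8 of these libraries lay below all controls, and the fold changes of -1.16 ± 0.14 (adjusted p = 0.000471) and -1.18 ± 0.14 (adjusted p = 0.000119) held with each library left out. At 10 mg/L, in the controls' own run set, the level was 1984 ± 239 CPM (SD, n = 4) against 2752 ± 506 CPM, a change of -0.47 ± 0.14 that did not pass (adjusted p = 0.147). Between 20 and 40 mg/L, within the other run set, the change was -0.02 ± 0.14 (adjusted p = 0.987). Under MeNQ the controls spread from 1278 to 5192 CPM, and no dose passed: the changes ran from -0.07 ± 0.32 at 34 mg/L to -0.35 ± 0.32 at 4225 mg/L (adjusted p = 0.882).

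SP-C rose where SP-D-like fell. In the TNT controls SP-C stood at 176, 174, 184 and 218 CPM, and at 3.4 mg/L at 729, 680, 449 and 745 CPM. The doses 1.5 and 2.3 mg/L had means of 474 ± 37 and 664 ± 127 CPM (SD, n = 4), and every exposed TNT library lay above every control. The log2 fold changes were 1.33 ± 0.16 (adjusted p = 0.000354), 1.82 ± 0.17 (adjusted p = 1.11e-05) and 1.79 ± 0.17 (adjusted p = 6.88e-06), and all 3 held with each library left out.

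Under IMX-101, SP-C rose at all 3 doses. The control libraries stood at 362, 446, 418 and 346 CPM and those of 10 mg/L, sequenced with them, at 574, 597, 653 and 541 CPM. This within-run-set rise was 0.59 ± 0.10 (adjusted p = 0.0135), with no overlap. At 20 and 40 mg/L the rises were 0.76 ± 0.10 (adjusted p = 0.00095) and 1.12 ± 0.10 (adjusted p = 1.6e-05). From 20 to 40 mg/L the value was 0.36 ± 0.10 (adjusted p = 0.196), although every 40 mg/L library lay above every 20 mg/L library.

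Under NQ, SP-C rose at 3750 mg/L from 461 ± 83 to 741 ± 190 CPM (SD, n = 4), a change of 0.69 ± 0.18 (adjusted p = 0.0377) with groups that overlapped. That call was lost in 6 of the 8 fits that left out 1 library (exposed A, C or D; control A, B or D; adjusted p up to 0.121). At the lower NQ doses the SP-C changes ran from -0.07 to 0.08. Under MeNQ at 4225 mg/L the SP-C libraries stood at 1055, 580, 469 and 550 CPM against 350, 462, 458 and 415 CPM. They lay above all controls, but the change of 0.66 ± 0.25 did not pass (adjusted p = 0.35).

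**Figure D2:**
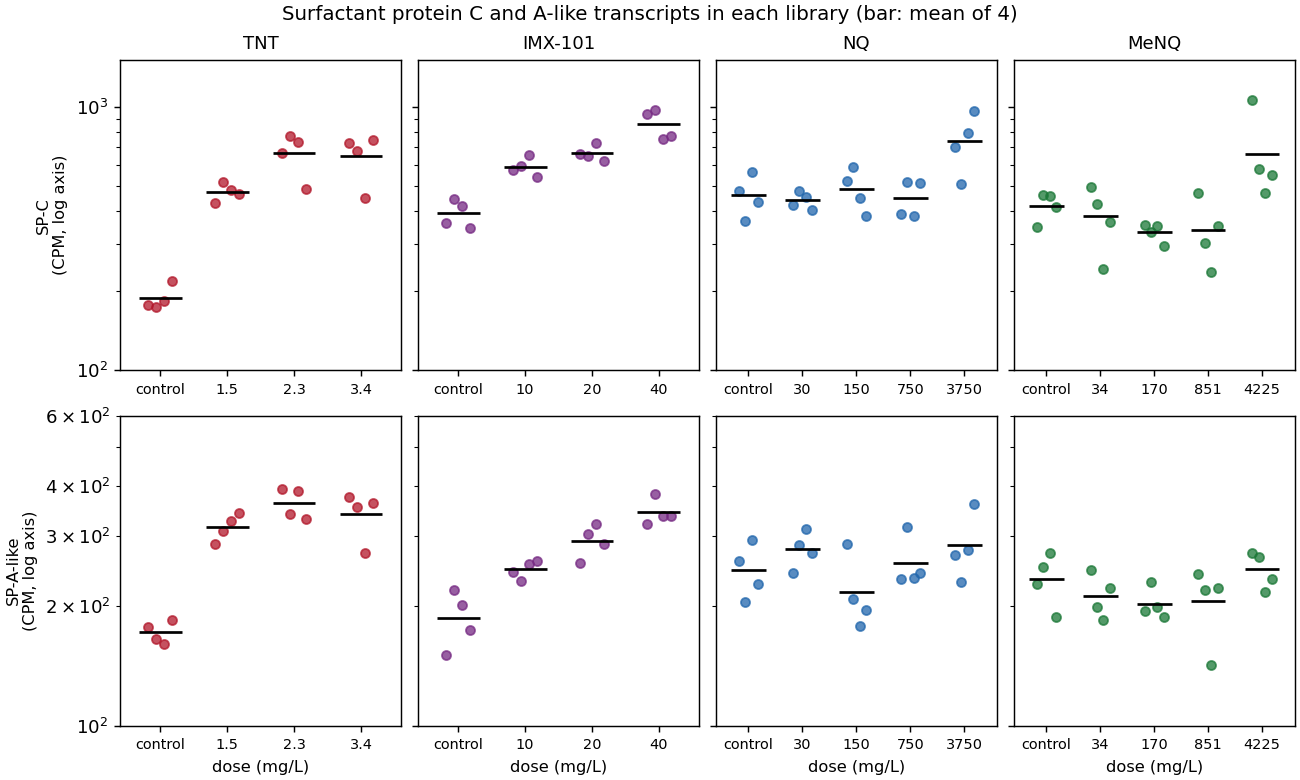
SP-C and SP-A-like (X. laevis match) levels in CPM (log axes) in each library, by exposure and dose in mg/L; points are libraries and bars are means of 4. Both rose at every TNT dose, SP-C from a control mean of 188 CPM to 651 CPM at 3.4 mg/L and SP-A-like from 172 to 340 CPM.

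The SP-A-like transcript with the X. laevis match, a collectin by name like SP-D, also rose under TNT and IMX-101, where SP-D-like fell. In the TNT controls it stood at 177, 165, 160.3 and 184 CPM and at 3.4 mg/L at 374, 354, 272 and 361 CPM. The rises at the low, middle and high dose were 0.88 ± 0.10 (adjusted p = 0.000181), 1.08 ± 0.10 (adjusted p = 1.17e-05) and 0.99 ± 0.10 (adjusted p = 1.42e-05), with no overlap with the controls. Under IMX-101 it rose by 0.65 ± 0.10 at 20 mg/L (adjusted p = 0.00319) and by 0.89 ± 0.11 at 40 mg/L (adjusted p = 0.000124); at 10 mg/L the change was 0.41 ± 0.10 (adjusted p = 0.0935). Under NQ and MeNQ its changes lay between -0.21 and 0.21 and none passed.

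The SP-A-like transcript with the X. tropicalis match was scarce and erratic. It ranged from 0.0 to 52.2 CPM over the 72 libraries and had no count in 9 of them. It was called under IMX-101 at 20 mg/L (2.33 ± 0.63, adjusted p = 0.0471) and 40 mg/L (2.41 ± 0.63, adjusted p = 0.0318), with no overlap with the controls, whose libraries stood between 2.4 and 4.02 CPM. These calls were lost in 7 of 8 fits that left out 1 library at 20 mg/L (all but exposed A; adjusted p up to 0.138) and in 5 of 8 at 40 mg/L (exposed A and each control; adjusted p up to 0.122). At 40 mg/L, library A stood at 40.9 CPM and the other 3 between 9.28 and 12.9 CPM. If both SP-A-like transcripts come from similar sequences, the authors' counting could have divided reads between them, so their separate values are uncertain.

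Within a library the ratio of SP-C to SP-D-like needs no scaling, and its shift describes both changes at once. As the log2 of the ratio, the TNT controls stood at -2.07, -2.78, -2.36 and -1.80, and the libraries of 3.4 mg/L at 2.82, 4.34, 2.38 and 3.65. Under IMX-101 the mean went from -2.80 ± 0.40 (SD, n = 4) in the controls to -1.74 ± 0.07 at the lowest dose. In the other run set it stood at -0.89 ± 0.24 and -0.51 ± 0.37 in order of dose. Under NQ it went from -2.35 ± 0.79 to -0.07 ± 0.72 at 3750 mg/L, and under MeNQ it lay between -3.06 and -2.83 up to 851 mg/L and at -2.04 ± 0.79 at 4225 mg/L. The zero of this ratio has no meaning, since the transcripts' lengths are not given, and no test was made of it.

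NQ and MeNQ, which differ by a methyl group on a nitrogen, were compared at the 4 matched molar concentrations by testing whether the 2 changes against their own controls differed. Among 33 members tested at each concentration, none was called. At 0.3, 1.4, 7.2 and 36 mmol/L, 0.0213%, 0.128%, 0.114% and 0.626% of all 14068 transcripts were called. Before adjustment 4, 7, 6 and 9 members lay under 0.05 in that order, beside 1093, 1353, 1200 and 1777 of all transcripts. DESeq2's Wald test gave 0, 1, 0 and 0 member calls. For SP-D-like at 36 mmol/L the MeNQ change minus the NQ change was 1.17 ± 0.46 log2 units, with a 95% interval of 0.27 to 2.07 and an unadjusted p of 0.0155, but adjusted over all transcripts p was 0.256. At 0.3, 1.4 and 7.2 mmol/L the SP-D-like differences were 0.36, 0.53 and 0.62, with intervals that all held 0. For SP-C at 36 mmol/L the difference was -0.05 ± 0.31, with an interval of -0.66 to 0.56, which leaves room for differences in either direction. The SP-D-like fall under NQ was thus called and the MeNQ value was not, without a called difference between them.

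**Figure D3:**
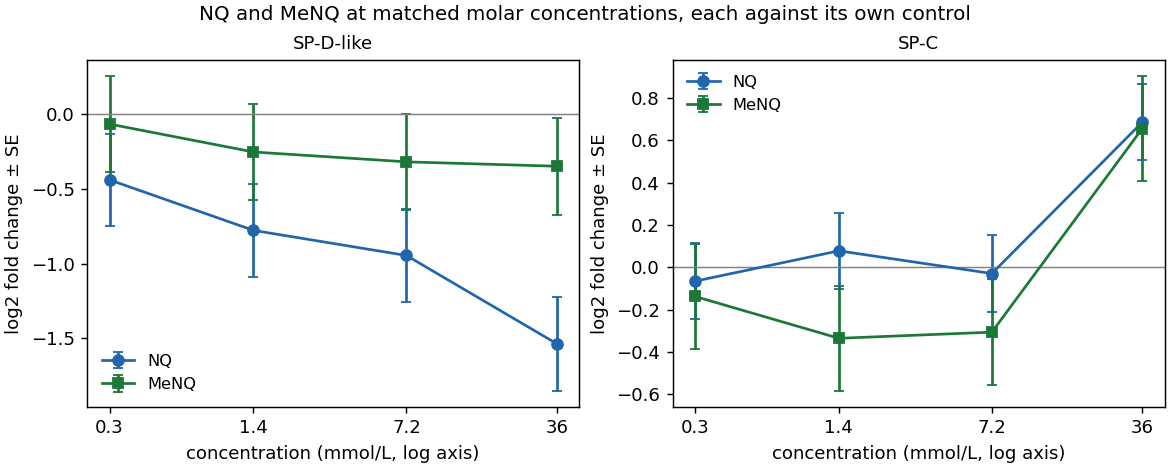
Log2 fold change ± SE of SP-D-like and SP-C against the control of the same exposure, at matched molar concentrations of NQ and MeNQ (log axis in mmol/L). SP-D-like reached -1.54 under NQ and -0.35 under MeNQ at 36 mmol/L, while SP-C reached 0.69 and 0.66.

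At the highest TNT dose, 13 of 30 members tested were called, 2 up and 11 down, where 12.0% of all transcripts were called (6.37% up and 5.61% down). The members' median change was -0.36, and that of all transcripts 0.06. At 1.5 mg/L, 6 of 30 were called, 4 up and 2 down (background 2.76%, 1.76% up and 1.00% down). At 2.3 mg/L, 8 of 30 were called, 3 up and 5 down (background 5.39%, 3.05% up and 2.34% down). At the highest IMX-101 dose 11 of 29 members were called, 7 up and 4 down (background 7.51%, 3.84% up and 3.68% down), with medians of -0.04 for members and -0.05 for all transcripts. At 20 mg/L 8 of 29 were called, 6 up and 2 down (background 5.21%, 2.66% up and 2.55% down), and at 10 mg/L 1, SP-C, was called up (background 0.989%, 0.718% up). Between 40 and 20 mg/L edgeR called none of 29 (background 0.303%, 0.112% up and 0.191% down), also with DESeq2's size factors. Before adjustment 5 members lay under 0.05 in that comparison, beside 1243 of all 12542 transcripts. At NQ 3750 mg/L 7 of 31 were called, 2 up and 5 down (background 4.48%, 1.39% up and 3.09% down), with medians of -0.21 and 0.02. At the lower NQ doses none was called, where the background was 0%, 0.0154% and 0%. Before adjustment 2, 5 and 3 of 31 members lay under 0.05 there, beside 1057, 979 and 875 of all 12969 transcripts. DESeq2's Wald test called 1 member at 150 mg/L and none at 30 or 750 mg/L. Under MeNQ no lectin was called (background 0%, 0.156%, 0.437% and 0.393%). Before adjustment 7, 5, 9 and 7 of 29 members lay under 0.05, beside 652, 1294, 1598 and 1352 of all 13496 transcripts. DESeq2's Wald test called 2, 1, 4 and 1 members under MeNQ. Its shares over all transcripts are not given, here or for NQ, so its counts have no background beside them. The 1 member called there by edgeR was a plectin-like transcript, at 170 mg/L (-0.88 ± 0.16, adjusted p = 0.0342) and 851 mg/L (-0.76 ± 0.16, adjusted p = 0.0449), and each of those calls was lost in 7 of 8 fits that left out 1 library (all but exposed A at 170 mg/L and all but exposed B at 851 mg/L; adjusted p up to 0.15 and 0.123). In the slope over dose steps, 12 of 30 members passed under TNT, 2 up and 10 down (background 11.5%, 6.11% up and 5.40% down), and 10 of 29 under IMX-101, 6 up and 4 down (background 7.73%, 3.71% up and 4.02% down). The IMX-101 slope spans both run sets, so there too run set and dose cannot be told apart. Under NQ 3 of 31 passed, all down (background 1.23%, 0.840% down), and under MeNQ none of 29 (background 0.0889%). By DESeq2's Wald test none passed in the MeNQ slope either. Before adjustment 3 members lay under 0.05 in that slope, beside 1107 of all 13496 transcripts.

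**Figure D4:**
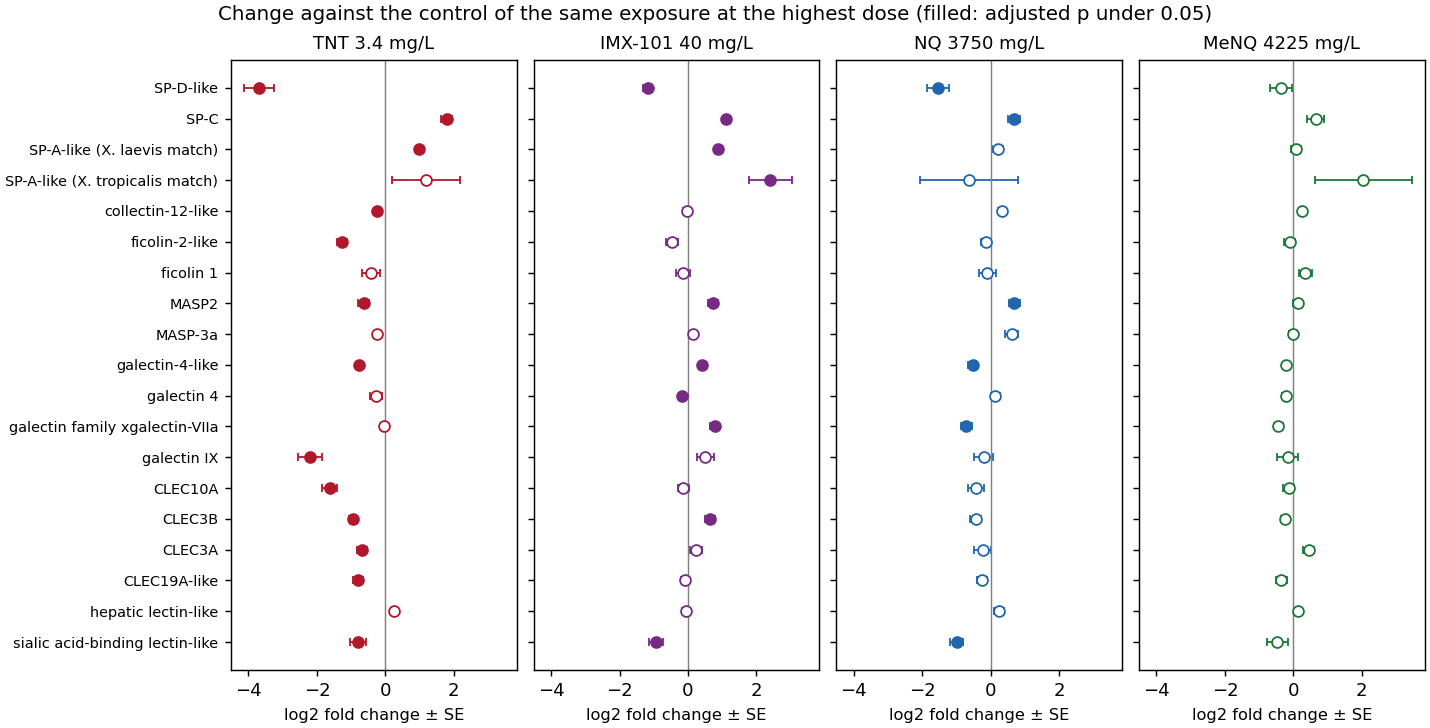
Log2 fold change ± SE of 19 members against the control of the same exposure at the highest dose of each; filled points passed an adjusted p of 0.05 and open points did not. Under TNT the called points other than SP-C and SP-A-like lie below 0, and under MeNQ no point is filled.

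Among the soluble pattern recognition proteins, ficolin-2-like, a fibrinogen-headed activator of the lectin pathway in mammals, fell under TNT. Its control libraries stood at 34.2, 30.9, 28.1 and 27.6 CPM and those of 3.4 mg/L at 11.5, 13.8, 12.3 and 12.5 CPM. The falls at 2.3 and 3.4 mg/L were -0.997 ± 0.14 (adjusted p = 0.000376) and -1.27 ± 0.14 (adjusted p = 2.64e-05), without overlap. Ficolin 1 was not called anywhere, with a change of -0.42 ± 0.26 at TNT 3.4 mg/L (adjusted p = 0.393). Collectin-12-like, a membrane-bound scavenger receptor with a collectin head, fell by 0.25 ± 0.05 at 3.4 mg/L (adjusted p = 0.00741), from 159 ± 9.95 to 134 ± 1.86 CPM (SD, n = 4). A second collectin-12-like transcript rested on a weak protein match, with an E-value of 0.604, and never exceeded 2.4 CPM.

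MASP2, the protease that cleaves complement C4 and C2 once a collectin or ficolin has bound, was called in both directions. At TNT 3.4 mg/L it fell by 0.63 ± 0.16 (adjusted p = 0.0179), from a control mean of 139 to 89.8 CPM. That call was lost in 2 of 8 fits leaving out 1 library (exposed B or C, adjusted p up to 0.0603). At NQ 3750 mg/L the libraries stood at 258, 198, 212 and 226 CPM against controls at 161, 108, 159 and 125 CPM, a rise of 0.69 ± 0.17 (adjusted p = 0.0237) that was lost in 4 of 8 fits leaving out 1 library (exposed A or D, control B or D; adjusted p up to 0.0867). Under IMX-101 it rose by 0.56 ± 0.14 at 20 mg/L (adjusted p = 0.0385; lost in 6 of 8 such fits, all but exposed A and control B, adjusted p up to 0.129) and by 0.73 ± 0.14 at 40 mg/L (adjusted p = 0.00654; held in all 8). MASP-3a rose by 0.41 ± 0.10 at TNT 1.5 mg/L (adjusted p = 0.0345), a call lost in 6 of 8 fits (all but exposed A and control C; adjusted p up to 0.139), and was not called at the higher TNT doses. Whether the TNT responses differed from those to NQ or IMX-101 was not tested.

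Of 12 further transcripts, of complement components of several pathways and of collectin receptors, 8 were tested under TNT, and 4 fell and none rose at 3.4 mg/L (5.61% of all transcripts fell). Complement C3, the central protein on which the complement pathways converge, fell from 2091 to 1288 CPM (-0.70 ± 0.08, adjusted p = 5.57e-05). Complement factor B, a protease of the alternative pathway, fell from 148 to 18.8 CPM (-2.97 ± 0.40, adjusted p = 0.000178), and the subunit C transcript of C1q, which starts the classical pathway, fell by 0.60 ± 0.11 (adjusted p = 0.00213). The fourth was a C3-like transcript (-1.54 ± 0.41, adjusted p = 0.0245; 5.11 CPM in the controls). The list's median was -0.54 against 0.06 for all transcripts. At NQ 3750 mg/L and IMX-101 40 mg/L none of 8 and 7 tested was called, where 4.48% and 7.51% of all transcripts were called. C3 changed by 0.53 ± 0.22 (adjusted p = 0.228) and 0.26 ± 0.15 (adjusted p = 0.423) in these 2 comparisons. At MeNQ 4225 mg/L none of 8 was called, where 0.393% of all transcripts were called. At MeNQ 851 mg/L 1 of 8 rose, where 0.259% of all transcripts rose. Of 30 other pathogen-binding or pathogen-sensing transcripts, 3 of 22 tested fell at TNT 3.4 mg/L, where 5.61% of all transcripts fell. The list's median there was 0.09 against 0.06 for all transcripts. The 3 were a scavenger receptor class A member 5-like (-0.71 ± 0.09, adjusted p = 0.00016), a C-reactive protein-related pentraxin (-1.22 ± 0.30, adjusted p = 0.0158) and the macrophage receptor MARCO-like (-3.72 ± 1.05, adjusted p = 0.0313; 2.38 CPM in the controls). None of 23 was called at the highest dose of the other exposures, where 4.48% (NQ), 7.51% (IMX-101) and 0.393% (MeNQ) of all transcripts were called.

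Among the galectins, galectin-4-like fell at every TNT dose. Its control libraries stood at 801, 808, 783 and 832 CPM and those of 3.4 mg/L at 472, 471, 493 and 467 CPM. The changes were -0.32 ± 0.05, -0.58 ± 0.05 and -0.76 ± 0.05 (adjusted p = 0.0018, 7.46e-06 and 3.52e-07), and every exposed library lay below every control. Under NQ at 3750 mg/L it fell by 0.53 ± 0.12 (adjusted p = 0.0184), lost in 5 of 8 fits leaving out 1 library (exposed A, C or D, control A or C; adjusted p up to 0.0739). Under IMX-101 it rose instead, by 0.38 ± 0.09 at 20 mg/L (adjusted p = 0.0314) and 0.41 ± 0.09 at 40 mg/L (adjusted p = 0.015), from 533 ± 65 to 710 ± 51 CPM (SD, n = 4) at the higher dose. Both doses were in the other run set, and no galectin was called at 10 mg/L or between 20 and 40 mg/L. Leaving out 1 library ended the call in 6 of 8 fits at 20 mg/L (all but exposed A and control C; adjusted p up to 0.113) and in 3 of 8 at 40 mg/L (exposed A, control A or D; adjusted p up to 0.0574).

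The transcript named xgalectin-VIIa, a name from Xenopus, was level under TNT (754 ± 29 CPM in the controls and 733 ± 46 CPM at 3.4 mg/L, SD, n = 4; -0.04 ± 0.07, adjusted p = 0.857). It fell at NQ 3750 mg/L by 0.71 ± 0.16 (adjusted p = 0.0186), lost in 5 of 8 fits leaving out 1 library (exposed A or D, control A, B or C; adjusted p up to 0.0856). It rose under IMX-101 by 0.58 ± 0.13 at 20 mg/L (adjusted p = 0.0174) and 0.78 ± 0.13 at 40 mg/L (adjusted p = 0.00147); the first was lost without exposed B or D or control A or D (adjusted p up to 0.065), and the second held in all 8 fits. Galectin 4, found in the gut lining of mammals, changed under IMX-101 by little but with small error: from 2505 ± 74 CPM to 2248 ± 75 at 20 mg/L (-0.16 ± 0.04, adjusted p = 0.0304) and 2224 ± 60 at 40 mg/L (-0.17 ± 0.04, adjusted p = 0.0135). The 20 mg/L call was lost without exposed B or C or control B or D (adjusted p up to 0.107) and under another library scaling.

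**Figure D5:**
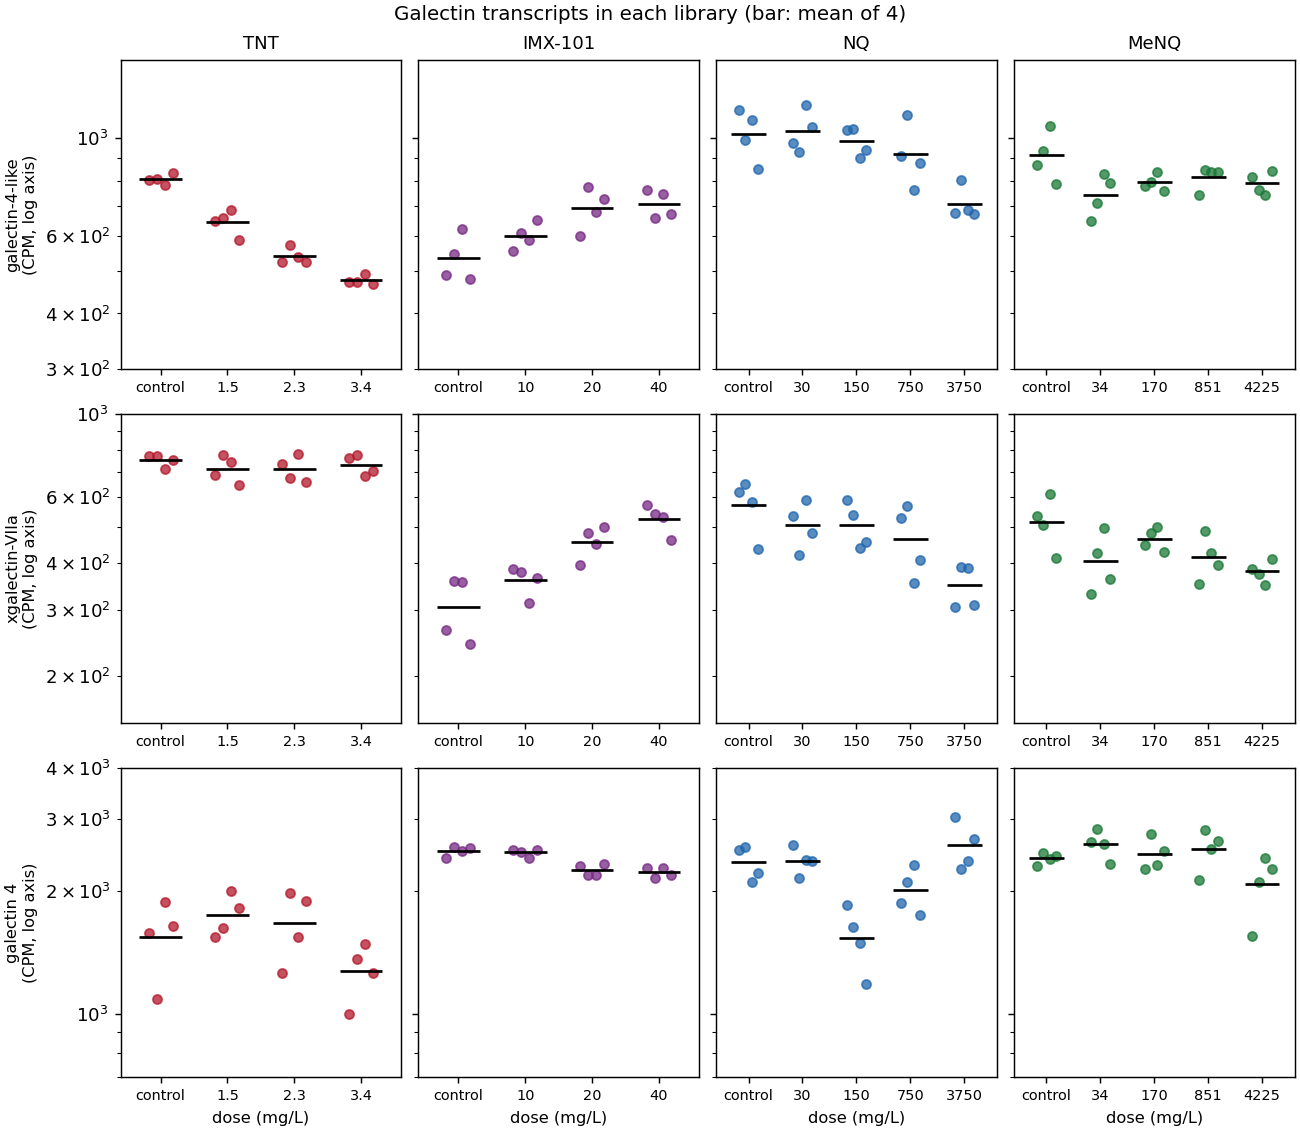
Levels of galectin-4-like, xgalectin-VIIa and galectin 4 in CPM (log axes) in each library, by exposure and dose in mg/L; points are libraries and bars are means of 4. Galectin-4-like fell with TNT dose from 806 to 476 CPM. It stood at 533 CPM in the IMX-101 controls and at 710 CPM at the highest IMX-101 dose. Those groups came from different run sets, so run set and dose cannot be told apart.

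Galectin IX fell under TNT, with control libraries at 19.1, 20.5, 16.7 and 20.0 CPM and those of 3.4 mg/L at 7.04, 2.08, 4.48 and 3.12 CPM. The fall of 2.19 ± 0.35 at 3.4 mg/L (adjusted p = 0.000705) held in every fit leaving out 1 library, whereas the fall of 1.30 ± 0.34 at 2.3 mg/L (adjusted p = 0.04) was lost in all 8 (adjusted p up to 0.104), although its libraries did not overlap the controls. A transcript named xgalectin-Ib fell at NQ 3750 mg/L (-0.40 ± 0.11, adjusted p = 0.0468) and at IMX-101 40 mg/L (-0.32 ± 0.08, adjusted p = 0.0168). The NQ call was lost in 6 of 8 fits (all but exposed B and D; adjusted p up to 0.161) and under another library scaling, and the IMX-101 call without exposed B or control D (adjusted p up to 0.0571). Reads of near-identical galectin copies could have been divided between the xgalectin transcripts by the authors' counting, so the separate galectin values are uncertain.

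Of 9 C-type lectins, 5 were tested, and 4 of these fell at TNT 3.4 mg/L, where 5.61% of all transcripts fell, while CLEC2B-like did not pass (0.05 ± 0.14, adjusted p = 0.916). CLEC10A, a galactose-binding receptor of macrophages and dendritic cells in mammals, fell the most. Its TNT control libraries stood at 34.2, 57.9, 61.5 and 48.3 CPM and those of 3.4 mg/L at 14.1, 13.0, 18.1 and 20.6 CPM. The falls were -1.04 ± 0.21 at 2.3 mg/L (adjusted p = 0.00716) and -1.63 ± 0.21 at 3.4 mg/L (adjusted p = 0.000115), without overlap and held in all 8 fits leaving out 1 library. CLEC3B, also known as tetranectin, a secreted plasminogen-binding protein, fell at 3.4 mg/L from 266 ± 27 to 138 ± 25 CPM (SD, n = 4; -0.95 ± 0.11, adjusted p = 6.29e-05). CLEC3A, a cartilage protein in mammals, fell by 0.68 ± 0.14 (adjusted p = 0.00475) and CLEC19A-like by 0.80 ± 0.15 (adjusted p = 0.00313).

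Outside TNT the only C-type lectin called was CLEC3B at IMX-101 40 mg/L, where it rose by 0.64 ± 0.15 (adjusted p = 0.0179); the call was lost without exposed A or control A or D (adjusted p up to 0.0684). The sialic acid-binding lectin-like transcript fell at TNT 3.4 mg/L (-0.79 ± 0.24, adjusted p = 0.0473), NQ 3750 mg/L (-0.996 ± 0.20, adjusted p = 0.0103) and IMX-101 40 mg/L (-0.93 ± 0.21, adjusted p = 0.0138). Under NQ its libraries stood at 14.9, 13.3, 13.3 and 20.1 CPM against 28.2, 27.0, 38.0 and 29.6 CPM in the controls, and the call held in all 8 fits. Under TNT it was lost in 6 of 8 (all but exposed A and control A; adjusted p up to 0.141) and under IMX-101 without control D (adjusted p 0.0504). A hepatic lectin-like transcript, named like the liver receptor that clears desialylated glycoproteins, rose at TNT 1.5 mg/L (0.53 ± 0.10, adjusted p = 0.00714) and 2.3 mg/L (0.38 ± 0.10, adjusted p = 0.0327). At 3.4 mg/L the value was 0.27 ± 0.10 (adjusted p = 0.0987), and the call at 2.3 mg/L was lost in 6 of 8 fits (each exposed library, control A or D; adjusted p up to 0.127).

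The other members tested were called in no dose comparison. Of the 5 siglecs, sialic acid-binding receptors of white blood cells in mammals, 4 were tested, and the smallest adjusted p among them was 0.138, for siglec-14 (X. tropicalis match) at NQ 3750 mg/L (-1.73 ± 0.62; 2.05 CPM in the controls and 0.611 CPM exposed). CLEC2B-like changed by 0.30 ± 0.10 at IMX-101 20 mg/L (adjusted p = 0.099), its smallest adjusted p. Ficolin 1 had its smallest adjusted p, 0.162, at MeNQ 851 mg/L (0.65 ± 0.19; 38.5 CPM in the controls and 60.5 CPM exposed). Endoplasmic reticulum lectin 1, which recognises glycans of misfolded proteins in mammals, ran from -0.40 to 0.27 over all dose comparisons. The xgalectin-IIa transcript changed by -1.12 ± 0.47 at TNT 3.4 mg/L (adjusted p = 0.164). The fish-egg lectin-like, xgalectin-IIb and a galactoside-binding lectin family transcript were so scarce that some groups had no count.

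Markers of cell types that could carry these transcripts moved in some of the same comparisons. Of 4 lung epithelium transcripts other than the surfactant members, all had counts in every group, but their summed level lay between 2.37 and 84.3 CPM per library. At the highest doses 4 (TNT), 4 (IMX-101), 3 (NQ) and 4 (MeNQ) of them were tested. Of all transcripts 12.0%, 7.51%, 4.48% and 0.393% were called in those comparisons. Only 1 of the 4 was called at any highest dose, a transcript of the surfactant-regulating receptor named adhesion G protein-coupled receptor F5-like. It was called at TNT 3.4 mg/L (-1.98 ± 0.53, adjusted p = 0.023; 2.65 CPM in the controls). Nkx-2.1-like, a transcription factor that directs lung and thyroid development, changed by 1.84 ± 0.79 there (adjusted p = 0.172; 0.306 CPM in the controls) and by 1.82 ± 0.59 at IMX-101 40 mg/L (adjusted p = 0.0851). A second F5-like transcript, isoform X1, changed by -0.67 ± 0.27 at TNT 3.4 mg/L (adjusted p = 0.142). At IMX-101 40 mg/L it changed by 3.64 ± 1.14 (adjusted p = 0.075), from 0.973 to 12.3 CPM. At NQ 3750 mg/L its change was 2.05 ± 0.71 and at MeNQ 4225 mg/L -0.62 ± 1.03 (adjusted p = 0.126 and 0.975). The remaining transcript, lysophosphatidylcholine acyltransferase 1, held a mean of 36.9 of the list's 50.7 CPM in the TNT controls. Its changes at the highest doses were -1.70 ± 1.41 (TNT), 0.40 ± 1.88 (IMX-101), -0.18 ± 1.68 (NQ) and -1.51 ± 1.52 (MeNQ), none called. The list's medians there were -1.19 (TNT), 1.11 (IMX-101), -0.09 (NQ) and -0.54 (MeNQ), against 0.06, -0.05, 0.02 and -0.01 for all transcripts.

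Of 19 mucus-secreting cell transcripts, 12 were tested under TNT, 14 under NQ and 15 under MeNQ and IMX-101. None rose at a highest dose, while 4 fell at TNT 3.4 mg/L, 3 at NQ 3750 mg/L, 4 at IMX-101 40 mg/L and none at MeNQ 4225 mg/L. Of all transcripts 5.61%, 3.09%, 3.68% and 0.274% fell in these comparisons. The list's median was -0.73 at TNT 3.4 mg/L and -0.76 at IMX-101 40 mg/L, but 0.02 at NQ 3750 mg/L, as for all transcripts there. Anterior gradient 2-B, a secretory-cell protein, fell by 0.82 ± 0.18, 1.15 ± 0.20 and 1.01 ± 0.10 in these 3 comparisons (adjusted p = 0.00774, 0.00384 and 2.55e-05). Mucin-2-like, which forms the gut's mucus gel, fell by 2.80 ± 0.43, 1.98 ± 0.38 and 1.07 ± 0.27 (adjusted p = 0.00056, 0.00701 and 0.0242). P4.2 trefoil factor went the other way at NQ 3750 mg/L, without passing (0.83 ± 0.30, adjusted p = 0.152). The list's summed level ran from 787 to 1030 CPM in the TNT controls and from 568 to 728 at 3.4 mg/L. In the NQ controls it ran from 1542 to 3124 and at 3750 mg/L from 1102 to 1204. Under IMX-101 it ran from 1789 to 2215 in the controls and from 950 to 1218 at 40 mg/L, in the other run set. At 10 mg/L, in the controls' own run set, it ran from 1422 to 1581 CPM. There 1 of 15 tested fell, where 0.271% of all transcripts fell. Under MeNQ, where none was called, it also fell without overlap. It ran there from 1860.9 to 2620.5 CPM in the controls and from 1087.8 to 1641.6 CPM at 4225 mg/L. Anterior gradient 2-B alone held a mean of 552 of the list's 920 CPM in the TNT controls and 1834 of 2153 CPM in the NQ controls. In the MeNQ and IMX-101 controls it held 1605.5 of 2176 and 1524 of 1999.9 CPM, so the sum rests largely on this 1 transcript. Its change at MeNQ 4225 mg/L was -0.67 ± 0.195 (adjusted p = 0.186). Of this list, integumentary mucin C.1-like was at 0 in all of these groups. The part of these cells in the SP-D-like values was not tested.

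Of 10 myeloid transcripts, 3 of 8 tested fell at TNT 3.4 mg/L, 3 of 7 at NQ 3750 mg/L and 4 of 7 at IMX-101 40 mg/L, among them interferon regulatory factor 8, needed for macrophage development (-0.75 ± 0.14, -0.78 ± 0.15 and -0.64 ± 0.15; adjusted p = 0.00247, 0.00644 and 0.0209). Their summed level ran from 189 to 342 CPM in the TNT controls and from 184 to 243 at 3.4 mg/L, which overlapped. It ran from 274 to 338 in the NQ controls and from 165 to 204 at 3750 mg/L, without overlap. In the IMX-101 controls it ran from 288 to 334 and at 40 mg/L from 168 to 217, also without overlap. For every list, run set and dose cannot be told apart at 40 mg/L. At 10 mg/L, in the controls' own run set, the myeloid sum ran from 282 to 538 CPM, overlapping the controls. None of 7 was called there, where 0.989% of all transcripts were called. One leukocyte marker, a receptor-type tyrosine-protein phosphatase C isoform X1 transcript, was at 0 in the NQ and IMX-101 groups named here. The shares of all transcripts that fell, given for the mucus list, apply to these counts too. Of 9 liver-secreted protein transcripts, 2 of 8 tested fell and 1 rose at TNT 3.4 mg/L. Transthyretin, a thyroid hormone carrier, fell there by 2.25 ± 0.20 (adjusted p = 5.36e-06). At NQ 3750 mg/L 1 rose and at IMX-101 40 mg/L 2 rose. Of all transcripts 6.37%, 1.39% and 3.84% rose in these 3 comparisons. The list's medians were -0.56, 0.75 and 0.54, against 0.06, 0.02 and -0.05 for all transcripts. Fibrinogen beta chain-like rose by 0.98 ± 0.23 at NQ 3750 mg/L and 0.59 ± 0.09 at IMX-101 40 mg/L (adjusted p = 0.0229 and 0.00101). Of 6 intestinal epithelium transcripts, all 5 tested fell at TNT 3.4 mg/L, where 5.61% of all transcripts fell. The sugar-digesting maltase-glucoamylase fell there by 1.15 ± 0.16 (adjusted p = 0.000219). None of the 5 was called at the highest dose of the other exposures, where 4.48% (NQ), 7.51% (IMX-101) and 0.393% (MeNQ) of all transcripts were called. The intestinal list's summed level ran from 5005 to 6489 CPM in the TNT controls and from 2227 to 3573 at 3.4 mg/L. None of the myeloid, liver or intestinal transcripts was called at MeNQ 4225 mg/L, where 0.393% of all transcripts were called. At MeNQ 170 and 851 mg/L 1 of 8 myeloid transcripts rose at each dose, where 0.00741% and 0.259% of all transcripts rose. The myeloid list's medians under MeNQ were 0.38, 0.34, 0.41 and 0.38 in order of dose. Those of all transcripts were 0.01, -0.02, -0.02 and -0.01. The part of any of these cell types in the lectin values was not tested.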

How the data were processed

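The submitters' processing notes name Salmon and bcl2fastq 1.8.4, and no label or header names the reference transcripts. The deposited values are estimated counts per transcript and sequencing run, for 19128 transcripts and 134 runs, with protein names from sequence matches. The authors' per-library tables hold the mean of a library's runs. Runs were summed per library (62 libraries had 2 runs and 10 had 1) and rounded to whole counts. Each exposure was fitted alone with edgeR 4.0.16 (R 4.3.3): filterByExpr, TMM scaling, group means, quasi-likelihood F test, Benjamini-Hochberg adjustment over all transcripts tested. SE is the log2 fold change divided by the square root of F. MeNQ and NQ were compared in 1 fit of 40 libraries. Levels are CPM on TMM-scaled totals. Alternatives were DESeq2 1.42.0 (size factors and Wald test), no low-count filter, the replicate letter as a block, means of runs, sums by protein name, and each library left out; IMX-101 40 against 20 mg/L was added after the data were seen.

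The members and lists were chosen with earlier results of these data known; most protein names that matched a list by letters alone were taken out after the names were seen (mucin-22 was not). Members described were the surfactant transcripts, the most abundant and most changed transcripts of each family, and any other member called; of each list, transcripts with the smallest adjusted p at the highest doses. In 1 column the header lines disagreed on the group, and the per-library table was followed (NQ control A). The smallest chi-square per transcript between libraries of a group was 15.7, so none was taken as a duplicate. Libraries are beakers. Precision at low counts is limited by depth, and CPM near 0 is counting noise. The edgeR script was tested on simulated data with TNT means and depths.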

Additional observations from a re-analysis of the deposited data

Results flagged for a closer look

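The highest or lowest level of a member among the 4 libraries of a group was checked for standing apart from the other 3. Dixon's gap over range test was used at its 95% critical value. It covered 133 pairs of member and group, which are not all such pairs. Chance flags about 1 in 20, and 7 were flagged. SP-D-like stood apart in 3 NQ groups: 1548 CPM in library A of 30 mg/L against 1855 to 1910 in the others, 1828 CPM in D of 150 mg/L against 1268 to 1335, and 885 CPM in A of 750 mg/L against 1374 to 1435. SP-A-like (X. laevis match) stood at 316 CPM in B of NQ 750 mg/L against 233 to 242. SP-A-like (X. tropicalis match) stood at 40.9 CPM in A of IMX-101 40 mg/L against 9.28 to 12.9. Galectin-4-like stood at 804 CPM in B of NQ 3750 mg/L against 671 to 688. The xgalectin-Ib transcript stood at 126 CPM in IMX-101 control A against 160.0 to 167.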

How the results depend on the processing

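Over all alternatives, 1017 of 1173 refitted member calls (dose comparisons and slopes) kept their direction and stayed past the threshold, 156 lost the call and none changed sign; 127 of those 156 came from leaving out 1 library. DESeq2's Wald test called 1 member at NQ 150 mg/L, 2, 4 and 1 at MeNQ 34, 851 and 4225 mg/L, 6 at IMX-101 10 mg/L, 6 in the NQ slope and 1 for MeNQ minus NQ at 1.4 mmol/L, against 0, 0, 1, 0, 1, 3 and 0. The share of all transcripts called by that test is not given, so these counts have no background beside them. Without the low-count filter and when summed by protein name the MeNQ 851 mg/L count was 0, and summed by protein name the MeNQ 170 mg/L count was 2. The replicate letters were not taken as pairs. Correlations of same-letter deviations ran from -0.0386 to 0.0852, and 18 of 56 exposed libraries were closest to the control of their own letter. Under NQ, library D of every dose was among them. With the replicate block the counts were 0 at MeNQ 170 and 851 mg/L and 4 at IMX-101 20 mg/L. Leaving out 1 library gave 3 to 7 calls at NQ 3750 mg/L (3 without exposed A or D or control B, 4 without control A, C or D), 0 to 1 at MeNQ 170 and 851 mg/L, 3 to 9 at IMX-101 20 mg/L (3 without exposed B or control D, 4 without exposed C or D or control A, 5 without control B) and 6 to 11 at IMX-101 40 mg/L (6 without control D). The causes were not tested. Leaving out single-run libraries could be done under TNT only, where it gave 6, 6 and 13 calls; DESeq2's test was not run for IMX-101 40 against 20 mg/L. No scaling moved the median of all transcripts by over 0.1. Depth limits members under about 1 CPM.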
